A study of Caenorhabditis elegans with 2 samples.

Results

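The regions described here are 547 strong peaks in distal intergenic sequence, from chromatin immunoprecipitation followed by sequencing (ChIP-seq) of the nuclear hormone receptor NHR-11 in the nematode Caenorhabditis elegans. They were chosen by their signal, as part of the 2000 highest peaks in the authors' pooled ce11 list, which held 9931 peaks. A peak was kept when its summit lay outside every protein-coding gene and did not fall from 1000 bp upstream to 200 bp downstream of the 5′ end of any such gene. The other strong peaks had their summits at promoters (689), in exons or UTRs (290) or in introns (474).

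The worms were late embryos of strain OP305, which carries the unc-119(ed3) mutation on chromosome III and the insertion wgIs305, a source of NHR-11 tagged with eGFP. The material was whole embryos of pooled sex, there were 2 biological replicates, and the labels gave a size range of 150 to 350 and no second condition. The promoter of the transgene was not given in the sources used here, both replicates carry the same insertion and mutation, and the signal is a mixture over all cell types of the embryo. The labels named a control experiment, which was not analysed here, and gave no read counts, so depth is unknown. Intervals are exact binomial 95% intervals and cover counting error only.

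Nuclear hormone receptors are transcription factors that bind DNA through zinc fingers and often respond to small lipophilic molecules. The family is greatly expanded in C. elegans, and many members, NHR-11 among them, have no well-known ligand. The worm genome is compact: most regulatory sequence sits close to the 5′ ends of genes, and the longer intergenic stretches hold distal enhancers, repeats, pseudogenes and short genes for noncoding RNA. Genes for tRNA are transcribed by RNA polymerase III and are frequent on chromosome X. The dosage compensation complex, which lowers expression from both X chromosomes of hermaphrodites, loads onto X at recruitment elements that share a sequence motif.

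The distal peaks made up 27.4% of the 2000 strongest (25.4 to 29.4%), against 26.7% of the 7931 lower-ranked peaks (25.7 to 27.7%) and 25% of genome bases that meet the same rule. Among the 500 strongest the share was 27.6% (23.7 to 31.7%), so the intervals overlapped at both ranks examined. The selection used the pooled signal, which is therefore a description only. The weakest distal peak had a signal of 31.61 and the next one outside had 31.60, and their false discovery rates, as deposited by the authors, were both 0.635.

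Sequences at some of the distal peaks, picked as examples and not in order of signal, show the kinds of DNA found. The first set shows the string GCGCAGGG or CGCAGGGA, found at 13 distal peaks, all of them on chromosome X. These 8-letter strings, which overlap by 7 letters, are part of the motif known from the recruitment elements of the dosage compensation complex. Capitals mark the string, and each line reads 5′ to 3′ along the strand on which it was found.

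W02H3.3 first: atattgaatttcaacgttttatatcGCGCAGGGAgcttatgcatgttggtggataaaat
W02H3.3 second: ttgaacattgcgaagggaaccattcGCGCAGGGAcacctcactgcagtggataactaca
F55G7.5: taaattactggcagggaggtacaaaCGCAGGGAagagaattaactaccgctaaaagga
T27A8.7: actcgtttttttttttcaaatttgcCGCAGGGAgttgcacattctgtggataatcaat
col-185: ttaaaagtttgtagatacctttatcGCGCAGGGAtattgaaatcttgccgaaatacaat
xol-1: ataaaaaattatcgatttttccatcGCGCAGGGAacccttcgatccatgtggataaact

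Each line is named for the gene with the nearest 5′ end. On ce11 (WBcel235, sequence from RefSeq) they are chrX:11094099-11094157 and chrX:11094200-11094258 on the minus strand, chrX:11937517-11937574 on the plus strand, chrX:16056507-16056564 on the minus strand, and chrX:13514533-13514591 and chrX:8036410-8036468 on the plus strand. The 2 matches of the W02H3.3 peak lay 50 bp to the left and 51 bp to the right of its summit.

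The second set shows a tRNA gene, a microRNA gene and tandem repeats under the peaks. In the first of these lines capitals mark the annotated bases of the tRNA gene WBGene00022958, and in the next those of the microRNA gene cel-mir-52. The last 2 lines show the best-matching stretch of the peak, and capitals mark every other repeat unit, of 25 bp near C24H10.4 and 19 bp near Y73C8C.4.

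tRNA at ets-5: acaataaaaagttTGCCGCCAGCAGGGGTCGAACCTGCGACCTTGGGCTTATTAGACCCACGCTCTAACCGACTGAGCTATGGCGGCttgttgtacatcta
cel-mir-52: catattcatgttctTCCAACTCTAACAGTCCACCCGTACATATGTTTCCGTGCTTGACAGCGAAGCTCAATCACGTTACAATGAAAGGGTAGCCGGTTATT
C24H10.4 repeat: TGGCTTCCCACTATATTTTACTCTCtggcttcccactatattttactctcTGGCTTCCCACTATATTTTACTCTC
Y73C8C.4 repeat: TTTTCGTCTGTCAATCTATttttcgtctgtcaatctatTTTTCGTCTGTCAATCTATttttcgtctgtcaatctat

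These are the plus strand of chrX:5085609-5085709, chrIV:14033994-14034094, chrX:5056449-5056523 and chrV:3098988-3099063. The third set contrasts base composition among strong single-copy peaks. Capitals mark G and C in the first 2 lines, and GAGAGA in the last.

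C30E1.4: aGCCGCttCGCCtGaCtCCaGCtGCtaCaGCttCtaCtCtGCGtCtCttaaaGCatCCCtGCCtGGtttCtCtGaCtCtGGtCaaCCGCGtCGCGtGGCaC
nlp-63: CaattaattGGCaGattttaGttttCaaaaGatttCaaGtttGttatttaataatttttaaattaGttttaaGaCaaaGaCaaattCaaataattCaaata
F43C1.7: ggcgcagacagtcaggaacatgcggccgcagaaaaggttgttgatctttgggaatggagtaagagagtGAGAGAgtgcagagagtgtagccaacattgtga

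The positions are chrX:16929680-16929780, chrII:10156300-10156400 and chrIII:4237881-4237981, plus strand. GC content over these windows, 50 bp to each side of the summit, was 58.4%, 17.8% and 50.5%, in the order shown.

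Presence in both replicates was asked next, since the pooled list reached far into weak peaks. Of the distal peaks, 29 (5.30%) were on the authors' thresholded list, against 5.05% of all 2000. Those among the 2000 strongest peaks of both replicates numbered 100 (18.3%), against 16.4% of all 2000. A false discovery rate of at most 0.05 was reached by 10 (1.83%), against 1.50% of all 2000. All 3 shares lay near those of the strong peaks as a whole, and the replicate lists share their reads with the pooled list that chose the peaks. The presence in both replicates fell steeply with rank, with 55.8% (47.1 to 64.2%) of the 138 distal peaks ranked 1 to 500, 12.6% (7.51 to 19.4%) of those ranked 501 to 1000, and 2.44% and 1.99% in the last 2 steps of 500. Peaks of other places had 49.7% (44.5 to 55.0%), 10.4%, 2.39% and 0.287% over the same ranks. On the thresholded list, 27 of the 29 distal peaks were strong in both replicates. Values for distal peaks past rank 500 therefore rest on sites that were rarely strong in both replicates.

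**Figure D1:**
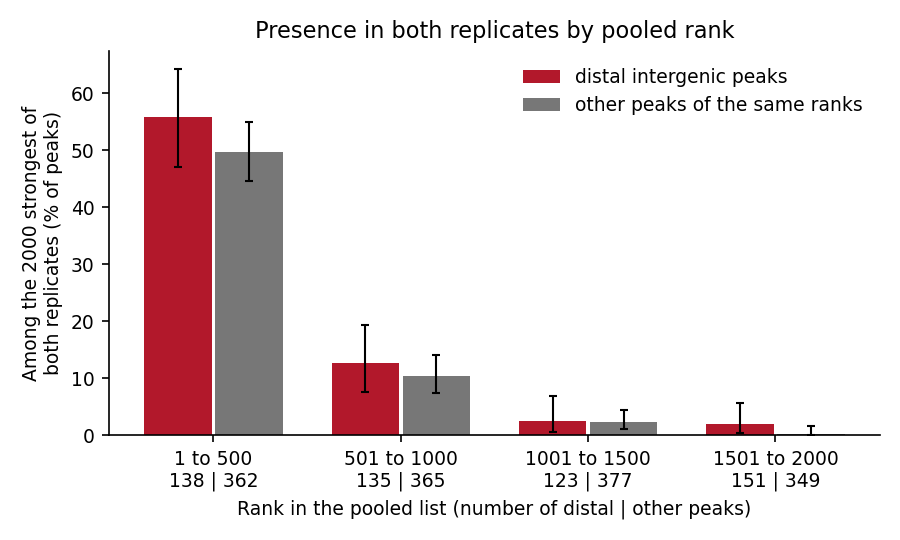
The bars give the share of peaks that overlapped one of the 2000 strongest peaks of both replicates (vertical axis, percent), by rank in the pooled list (horizontal axis, with the number of distal and of other peaks). Red bars are distal intergenic peaks, grey bars are peaks elsewhere and whiskers are exact binomial 95% intervals; the share is 55.8% for distal peaks of the first step and 1.99% for those of the last.

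A peak of any strength was present for 525 distal peaks in replicate 1, for 503 in replicate 2 and for 481 in both. These are 96.0%, 92.0% and 87.9% of the distal peaks, against 96.5%, 92.6% and 89.1% of all 2000 strong peaks. Where both had one, the median log2 ratio of signal, replicate 1 over replicate 2, was 0.26 (95% interval 0.20 to 0.37). The deposited signals were not stated to be scaled between replicates, so a ratio also holds any difference in depth.

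The strongest distal peak lay on chromosome I from 933353 to 933667, 4974 bp upstream of nas-30, which encodes a metalloprotease of the astacin class. The signal was 447 in the pooled list, 232 in replicate 1 and 246 in replicate 2, the highest in all 3 lists. The peak held a tandem repeat with a unit of 27 bp and matched 47 other places in the genome.

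Next in signal were 2 peaks on chromosome X and 1 on III, each with a single copy in the genome. The X peak near W02H3.3 (11094000 to 11094355) had 109 in the pooled list, 56.3 in replicate 1 and 54.1 in replicate 2. The X peak near F55G7.5 (11937332 to 11937687) had 104, with 67.3 in replicate 1 and 41.0 in replicate 2. The peak near F43C1.7 on III (4237753 to 4238108) had 99.3, with 42.8 in replicate 1 and 55.9 in replicate 2. All 3 were 1416 to 4644 bp from the 5′ end, past the 3′ end of the named gene.

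Strong distal peaks also lay near genes of several known functions. The peak near ins-13, an insulin-like peptide gene, was on chromosome II (5543652 to 5544007) and had 74.0, with 43.3 in replicate 1 and 38.1 in replicate 2. Its summit lay 123 bp from sls-2.2 and 334 bp from sls-2.3, genes for the spliced leader RNA that is joined to downstream transcripts of operons. The peak 1291 bp upstream of pot-3, a homologue of telomere-binding POT1, was on III (13778746 to 13779101) and had 74.3, with 52.1 in replicate 1 and 36.5 in replicate 2. At 9908 bp upstream of dmd-6, a doublesex-family transcription factor gene, a peak on IV (14606517 to 14606872) had 72.1, with 34.7 in replicate 1 and 37.6 in replicate 2, and 9 piRNA genes lay within 1000 bp.

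Other peaks of the thresholded list were nearest to the bZIP gene zip-7 (68.0), the ligand-gated channel gene lgc-26 (64.9), the exon junction gene casc-3 (64.4) and the linker histone gene hil-7 (62.7). Those near the peptide receptor gene frpr-3 and the neuropeptide gene nlp-40 had pooled signals of 59.7 and 59.3. A peak near cnd-1, a NeuroD-family gene of neuronal development, had a pooled signal of 58.9 that came mainly from replicate 1, with 44.5 there and 14 in replicate 2, where it ranked 5904. The nlp-63 peak was likewise uneven, with 37.2 in replicate 1 and 16.9 in replicate 2. These were the 2 of the 29 peaks that were not among the 2000 strongest of both replicates.

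**Figure D2:**
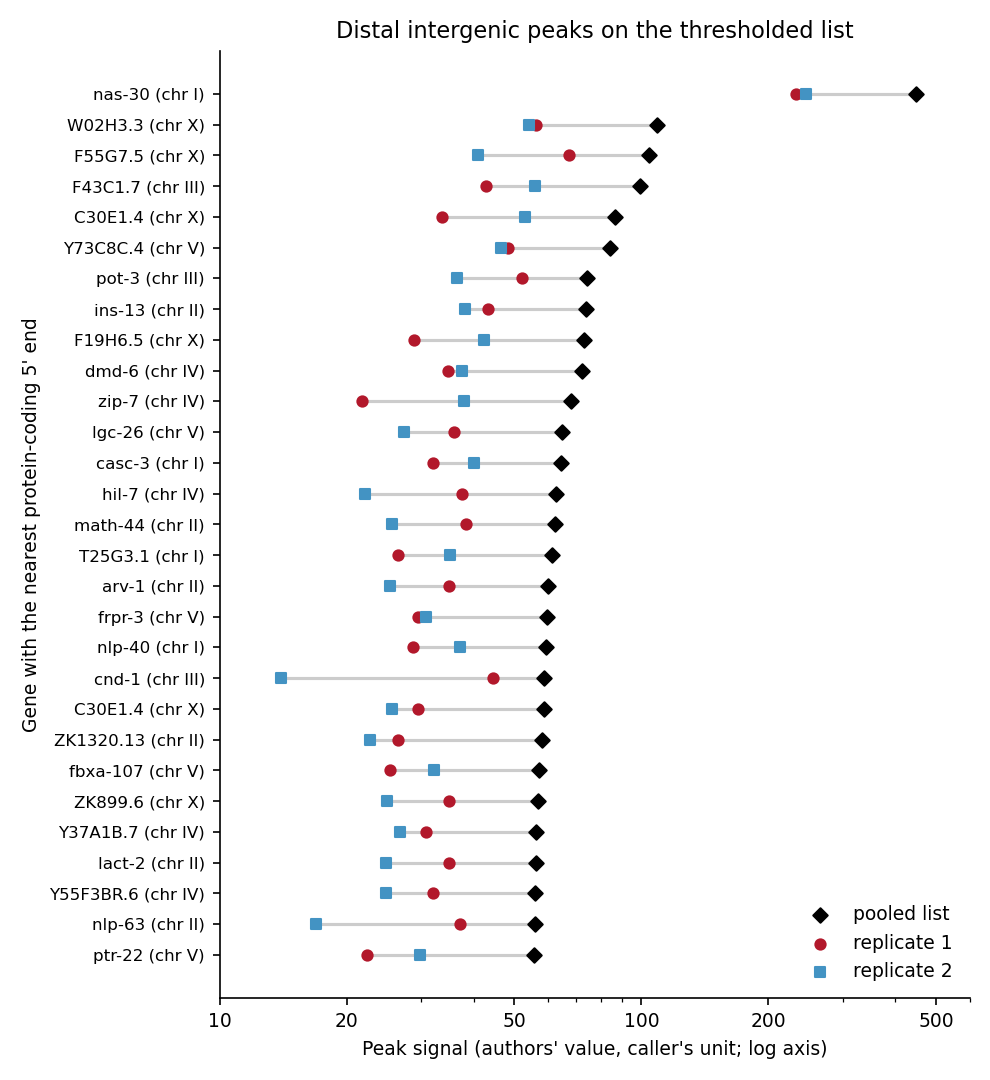
Each row is one of the 29 distal peaks on the thresholded list, named by the gene with the nearest 5′ end and its chromosome, in order of pooled signal. The horizontal axis is the authors' peak signal on a log axis, with diamonds for the pooled list, circles for replicate 1 and squares for replicate 2; the nas-30 peak stands at 447 and the cnd-1 and nlp-63 peaks have their replicates farthest apart.

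Median distances to genes were slightly shorter than those of distal bases, with intervals that overlapped those of lower-ranked distal peaks. The median distance from summit to the nearest protein-coding 5′ end was 2462 bp (2254 to 2725), against 2685 bp (2572 to 2796) for the 2117 lower-ranked distal peaks and 2756 bp for distal bases. Of the strong distal peaks, 36% lay 1000 to 2000 bp away, against 32.7% of lower-ranked distal peaks and 31.0% of distal bases, and 2.01% lay over 10000 bp away, against 3.21% and 4.24%. The nearest edge of a gene was a median of 1692 bp away (1515 to 1859), against 1736 bp (1654 to 1832) and 1866 bp. The genes on both sides diverged from 34.2% of the strong distal peaks (30.2 to 38.3%), against 29.8% of both the lower-ranked peaks and the distal bases. In 19 cases the summit lay within 1000 bp downstream of a 5′ end but past the end of a short gene.

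The peaks farthest from the edge of any protein-coding gene were on chromosomes II, V and X. The peak 11836 bp upstream of madd-2 on V had a pooled signal of 53.2, with 40.6 in replicate 1 and 12.1 in replicate 2. The peak 10957 bp upstream of lact-2 on II was the one on the thresholded list among the 5 farthest, with 56.2, and 34.9 in replicate 1 and 24.8 in replicate 2. The others were 11752 bp from R02E12.5, 11436 bp from B0294.3 and 10887 bp from T24D5.1, all on X, with pooled signals of 34.4, 43.3 and 41.7. Each of the 4 past the madd-2 peak had a noncoding RNA gene within 237 bp.

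The 547 peaks fell in 483 intergenic intervals, and 49 intervals held 2 or more, with 113 peaks in all. The interval between C30E1.4 and F52G3.8 on X, 23880 bp long, held 3 peaks with pooled signals of 86.5, 58.9 and 32.7, the first 184 bp from the noncoding RNA gene C30E1.9 and the second inside it. Intervals with 4 peaks were those between T19H5.4 and gcy-3, between the homeobox gene ceh-58 and ztf-27, and between sdz-38 and lec-3, all on II, with pooled signals of 32.5 to 48.9; they were picked out after their values were seen. Overlap with a stronger distal peak was seen for 9 peaks, so the number of separate sites is slightly lower.

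Of 14 gene family lists, 12 had an interval that held their share of distal bases, and the chemoreceptor and histone lists did not. Nuclear hormone receptor genes had the nearest 5′ end for 9 peaks (1.65%, 0.755 to 3.10%), against 2.08% of lower-ranked distal peaks and 1.84% of distal bases. The strongest of them were near nhr-112 (46.3), nhr-32 (43.6), nhr-10 (43.0), nhr-17 (41.5) and nhr-84 (38.5). Chemoreceptor genes, which serve smell and taste, had 17 peaks (3.11%, 1.82 to 4.93%), against 3.21% and 5.53%. Neuropeptide and insulin genes had 9 (1.65%, 0.755 to 3.10%), against 1.18% and 1.48%. F-box and BTB genes, of protein degradation, had 10 (1.83%, 0.880 to 3.34%), against 0.945% and 1.82%. Homeobox genes, of developmental regulation, had 7 (1.28%, 0.516 to 2.62%), against 1.18% and 0.844%. Core histone genes had 3 (0.548%, 0.113 to 1.59%), against 0 of the lower-ranked peaks and 0.102% of bases, and 2 of the 3 overlapped each other beside his-67. The other 8 lists had 1 to 5 peaks each, and every interval of these 8 reached the share of distal bases.

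Chromosome X held 150 of the distal peaks (27.4%, 23.7 to 31.4%), against 25.5% (23.6 to 27.4%) of lower-ranked distal peaks and 22.8% of distal bases. The interval lay above the share of bases and overlapped that of the lower-ranked peaks. In the list of each replicate taken alone the interval held the share of bases, with 25.5% (22.0 to 29.4%) on X in replicate 1 and 25.3% (21.6 to 29.2%) in replicate 2, and it did so too without the peaks that have copies elsewhere (26.1%, 22.2 to 30.3%). With a limit of 2000 bp upstream the share was 26.8% (22.4 to 31.5%), and outside noncoding genes and their promoters it was 24.8% (20.6 to 29.4%); the share of bases under those limits was not computed. Chromosome II had 17.9% (14.8 to 21.4%), against 14.6% and 14.3%, while IV had 16.6% (13.6 to 20%), against 20.1% and 20%. Strong peaks at promoters, exons and introns had 20.7% on II, 13.9% on IV and 18.5% on X. Relative to distal bases, these other peaks lay on the same side as distal peaks on II and IV, but not on X. Their own share of bases is not given here. Along the autosomes, the fourth of 5 equal parts from the left end held 27.2% of autosomal distal peaks (22.9 to 31.9%), against 20.9% of lower-ranked ones and 18.5% of bases, and the fifth held 16.9% (13.3 to 20.9%), against 23.1% and 24.1%.

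**Figure D3:**
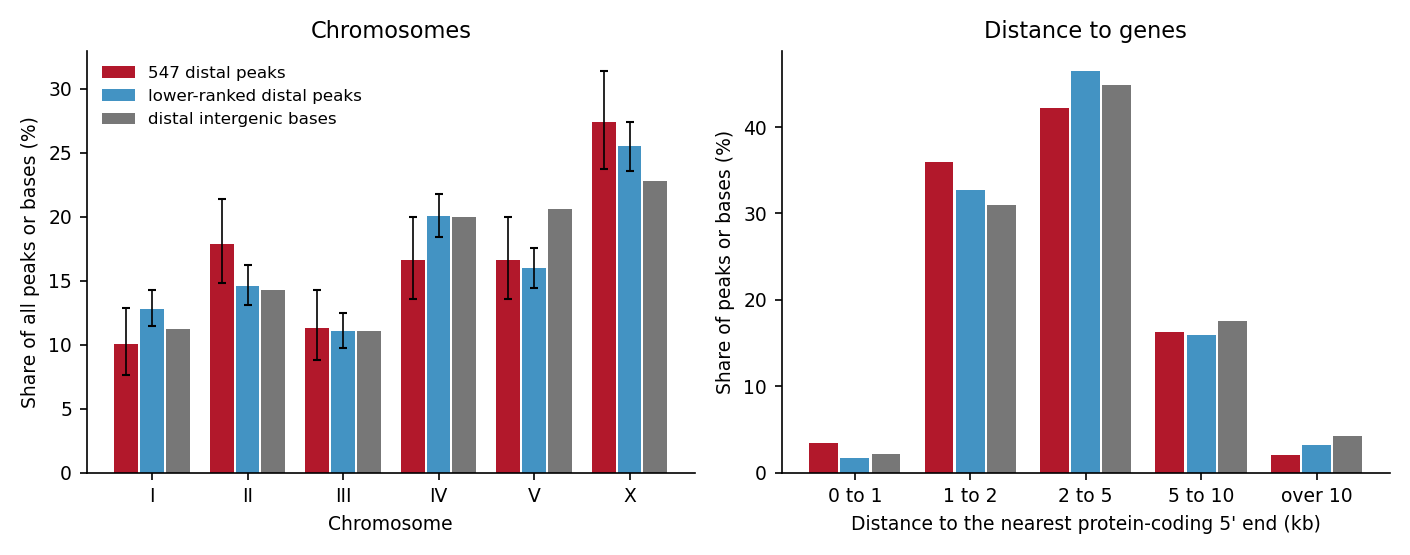
The left panel gives the share of peaks or bases on each chromosome (percent) and the right panel the share at each distance from the nearest protein-coding 5′ end (kb). Red bars are the 547 distal peaks, blue bars lower-ranked distal peaks and grey bars distal bases, with exact binomial 95% intervals as whiskers on the left; X holds 27.4% of the strong distal peaks against 22.8% of distal bases.

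The recruitment-element strings shown above were found at distal peaks of chromosome X and at 0 of those on autosomes. Strings and tRNA genes were examined after the values were seen, by counts alone. The strings were first searched for within 50 bp of the summit, where 4 of 150 X peaks (2.67%, 0.731 to 6.69%), 0 of 397 autosomal distal peaks and 3 of 2117 lower-ranked distal peaks had one. The search was widened to the whole peak after those values were seen, which raised the share on X from 2.67% to 8.67%. Within the whole peak, GCGCAGGG or CGCAGGGA on either strand occurred in 13 of 150 X peaks (8.67%, 4.70 to 14.4%) and in 0 of 397 autosomal distal peaks (up to 0.925%). Lower-ranked distal peaks had it in 0 of 539 on X (up to 0.682%) and in 9 of 1578 on autosomes (0.570%, 0.261 to 1.08%). Windows of 356 bp, the commonest peak length, tiled over distal sequence held it in 0.329% on X and 0.242% on autosomes. Strong peaks at promoters, exons and introns held it in 5 of 269 on X (1.86%, 0.606 to 4.28%). On autosomes these other strong peaks held it in 13 of 1184 (1.10%, 0.586 to 1.87%), above the 0.242% of autosomal windows. Over all chromosomes the share was 2.38% (1.27 to 4.03%) of distal peaks and 1.74% (0.903 to 3.02%) at promoters. In exons or UTRs it was 0.690%, in introns 0.844% and over all 2000 it was 1.55%.

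Counting overlapping peaks once left 11 of the 13 distal X peaks, with 14 separate matches, 9 of which had both strings joined as GCGCAGGGA. The string occurred in 9 of the 44 distal X peaks ranked 1 to 500 (20.5%, 9.80 to 35.3%) and in 4 of the 106 ranked below (3.77%, 1.04 to 9.38%). Of the 13 distal X peaks, 9 were among the 2000 strongest of both replicates, against 20.7% of all distal X peaks. Of the 9 with the string ranked 1 to 500, 7 were, against 55.8% of all distal peaks of those ranks. Of the 4 ranked below, 2 were. The part of rank in this count was not tested. Overlapping pairs near F20B6.9 and F55G7.5 were counted as separate peaks here. Both peaks of each pair were among the 9 that were strong in both replicates. The peaks of a pair overlapped the same replicate peaks and held the same match. The weaker peak of each pair was among the 4 ranked below. In the list of each replicate taken alone, 9 of 142 distal X peaks in replicate 1 (6.34%) and 9 of 133 in replicate 2 (6.77%) had the string. On autosomes it was 1 of 414 in replicate 1 and 0 of 393 in replicate 2. The lower bounds on X, 2.94% in replicate 1 and 3.14% in replicate 2, lay above the 0.329% of X windows. These lists share their reads with the pooled list, and the strings and window were chosen after its values were seen. The replicate counts are therefore descriptions only.

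The strongest peaks with the string were those near W02H3.3 (109) and F55G7.5 (104). The third, near F19H6.5, had a pooled signal of 72.9, with 28.9 in replicate 1 and 42.3 in replicate 2. Peaks near gtr-1 and F20B6.9 had 53.3 and 53.1 and those near F22H10.2, T27A8.7 and col-185 had 49.9, 48.9 and 47.7. A peak 4756 bp upstream of xol-1, the switch gene of sex determination and dosage compensation, had 43.8, with 25.5 in replicate 1 and 21.8 in replicate 2, and 2 separate matches. This xol-1 peak also had 18 copies elsewhere in the genome, and its summit lay 128 bp from the tRNA gene WBGene00022939. Of the 13 distal peaks with a string, 12 had no copy elsewhere. The matches lay 5 to 173 bp from the summits. Whether the dosage compensation complex was present at these peaks was not tested.

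**Figure D4:**
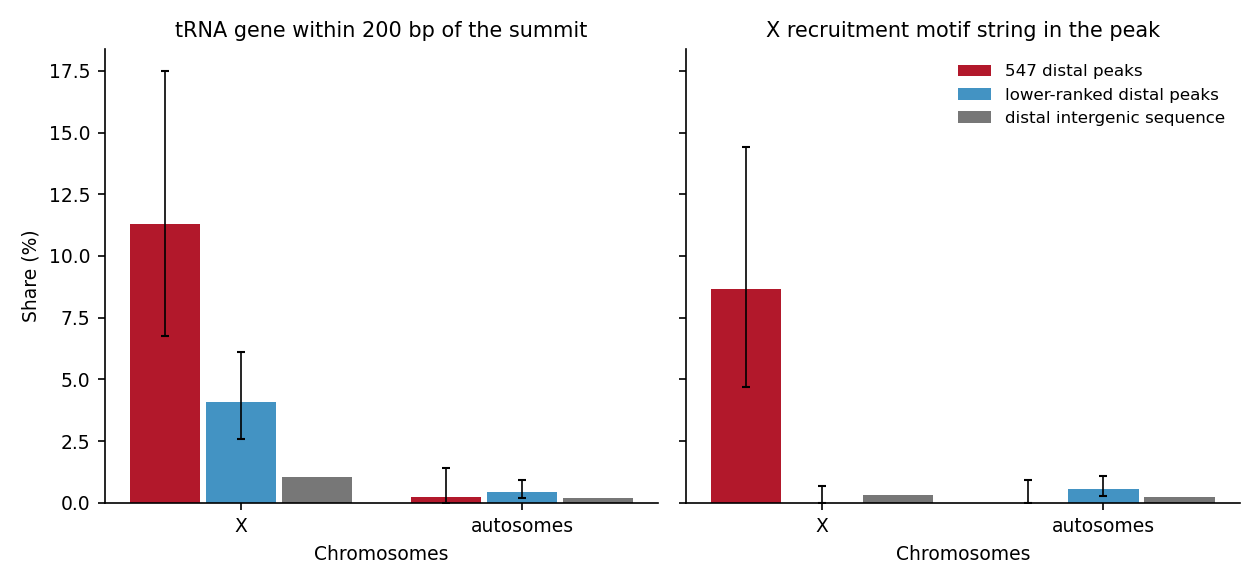
The left panel gives the share of summits with a tRNA gene within 200 bp and the right panel the share of peaks holding either recruitment-element string (percent), on X and on the autosomes. Red bars are the 547 distal peaks, blue bars lower-ranked distal peaks and grey bars distal bases or 356 bp windows of distal sequence, with exact binomial 95% intervals as whiskers; the red bars on X stand at 11.3% and 8.67%.

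Noncoding genes were then counted, first together and then by kind. Some noncoding gene or pseudogene lay within 1000 bp of 211 summits (38.6%), against 40.7% of lower-ranked distal summits and 42.1% of distal bases. On X, 17 of 150 summits were within 200 bp of a tRNA gene (11.3%, 6.74 to 17.5%), against 22 of 539 lower-ranked ones (4.08%, 2.58 to 6.11%) and 1.06% of X distal bases. On autosomes it was 1 of 397 (0.252%, 0.00638 to 1.40%), against 0.444% and 0.189%. In the list of replicate 1 alone, 13 of 142 X summits (9.15%, 4.97 to 15.1%) and 0 of 414 autosomal ones had such a gene. In that of replicate 2, 14 of 133 X summits (10.5%, 5.88 to 17.0%) and 5 of 393 autosomal ones (1.27%, 0.414 to 2.94%) had one, so the lower bound on autosomes was above the share of bases in replicate 2. All 6 summits inside a tRNA gene were on X, against 6 of the 9 lower-ranked ones. Genes for tRNA covered 0.186% of distal bases on X and 0.0340% on autosomes. Of the 17 X peaks, 16 had a near-identical copy elsewhere in the genome, so reads could have been placed at more than one gene, and the part of this in the result was not tested.

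The strongest peak with its summit in a tRNA gene, shown above, lay 1133 bp upstream of ets-5, an ETS-family transcription factor gene. Its pooled signal was 53.3, with 22.0 in replicate 1 and 29.4 in replicate 2, and 20 other copies were found. A peak in WBGene00014540 near the collagen gene col-181 had 49.7, with 16.7 in replicate 1 and 31.4 in replicate 2, and 28 copies. A peak in WBGene00014634 had 46.9, with 20.9 in replicate 1 and 21.3 in replicate 2, and 40 copies. The strongest peak within 1000 bp of a tRNA gene was on IV, 613 bp from WBGene00023184, with 56.0.

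Long intergenic noncoding RNA (lincRNA) genes held the summit of 11 distal peaks (2.01%, 1.01 to 3.57%), against 8 of 2117 lower-ranked ones (0.378%, 0.163 to 0.743%) and 0.740% of distal bases. Only 1 of the 11 was among the 2000 strongest of both replicates. In the replicate lists taken alone the count was 8 of 556 in replicate 1 (1.44%, 0.623 to 2.82%) and 5 of 526 in replicate 2 (0.951%, 0.309 to 2.20%), and both intervals reached the share of distal bases. A peak 11 bp from linc-46, near math-44 on II, was on the thresholded list with 62.3, and 38.3 in replicate 1 and 25.6 in replicate 2. The strongest inside a lincRNA gene was in linc-128, with 49.9, and 30.8 in replicate 1 and 20.9 in replicate 2.

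Small nucleolar RNA genes, whose products guide modification of ribosomal RNA, lay within 200 bp of 6 distal peaks (1.10%, 0.404 to 2.37%), against 0.425% of lower-ranked ones and 0.169% of bases. All 6 were on autosomes, which held 313 of the 346 annotated genes of this kind. On X it was 0 of 150 (up to 2.43%). The strongest of the 6 was 43 bp from T06C12.16, with a pooled signal of 50.7, and 23.2 in replicate 1 and 23.6 in replicate 2. One summit lay inside a microRNA gene, cel-mir-52 of the mir-51 family, with 56.3, and 30.9 in replicate 1 and 26.7 in replicate 2. Spliced leader genes were near 2 peaks, the one at sls-2.2 and one 224 bp from sls-2.10, with 32.1.

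Pseudogenes and piRNA genes had shares below those of distal bases. A pseudogene held the summit of 21 distal peaks (3.84%, 2.39 to 5.81%), against 5.62% of lower-ranked ones (4.68 to 6.69%) and 10.7% of distal bases. The strongest was in WBGene00050935 near fbxa-107, with 57.2, and 25.3 in replicate 1 and 32.2 in replicate 2. Genes for piRNA, short RNAs of the germline, lay within 1000 bp of 36 (6.58%, 4.65 to 9.0%), against 11% (9.70 to 12.4%) and 10%.

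Copies and repeats came next. A match of at least 90% identity over 50 bp elsewhere in the genome was found for 72 distal peaks (13.2%, 10.4 to 16.3%), against 11.7% of lower-ranked distal peaks (10.4 to 13.2%). Strong peaks at promoters had 6.53% (4.80 to 8.64%), those in exons or UTRs 2.76% and those in introns 13.5% (10.6 to 16.9%). Among distal peaks ranked 1 to 500 the share was 20.3% (13.9 to 28.0%). Bases in lower case in the genome sequence, which mark repeats, made up a mean of 33.8% of the distal peaks. Lower-ranked distal peaks had 37.9% and distal bases 40.3%. All 2000 strong peaks had a mean of 34.0%, so the share at distal peaks was near that of strong peaks as a whole.

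Tandem repeats with a unit of up to 60 bp were found in 23 distal peaks (4.20%, 2.68 to 6.24%), against 2.13% (1.55 to 2.83%) of lower-ranked distal peaks. Strong peaks in introns had 3.80% (2.27 to 5.94%), those at promoters 2.18%, those in exons or UTRs 0 and all 2000 had 2.80%. Peaks that matched each other formed 6 families with 19 peaks in all. The largest family had 6 peaks on I, II, III, V and X, with units of 25 or 27 bp, and included the nas-30 peak. Apart from that peak its signals were 33.2 to 48.8. The Y73C8C.4 peak, shown above, had 84.1, with 48.3 in replicate 1 and 46.5 in replicate 2, and 24 copies, and shared its 19 bp unit with a peak near arrd-1 that had 35.8. Another 2 families, of 3 and 2 peaks, were all on X, and all 5 peaks were within 66 bp of a tRNA gene. The most copies, 329, belonged to a peak 1397 bp upstream of unc-11, a clathrin adaptor gene, with a signal of 34.1, and the next, 149, to a peak 10074 bp upstream of nhr-1 with 35.3.

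The median GC content within 50 bp of the summit was 33.7% (32.7 to 34.7%), against 31.7% (31.7 to 32.7%) for lower-ranked distal peaks and 33.7% for distal windows of the same length, and flanks 500 bp away had 32.7%. It ranged from 14.9 to 62.4%. Windows of at least 45% GC made up 13.3% (10.6 to 16.5%), against 9.64% (8.41 to 11%) of lower-ranked peaks and 10.8% of distal windows. All 2000 strong peaks had 14.9% (13.4 to 16.5%), those at promoters 19.4%, in introns 12.7% and in exons or UTRs 10.7%. The share at distal peaks was thus near that of strong peaks as a whole. Among distal peaks on X it was 18.7% (12.8 to 25.8%), against 9.95% of X distal windows. Distal peaks ranked 1 to 500 had a median of 35.6% (33.7 to 38.6%). The single-copy C30E1.4 and nlp-63 peaks, at 58.4% and 17.8%, show how far the strong peaks spread. The median differed between the replicates' own lists, with 31.7% in replicate 1 and 34.7% in replicate 2.

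**Figure D5:**
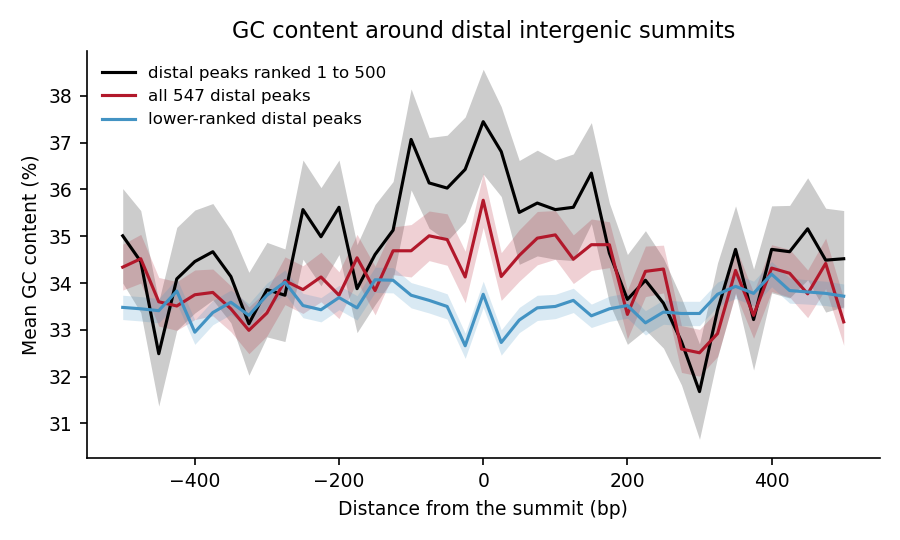
Mean GC content (percent) in steps of 25 bp against distance from the summit (bp), with the standard error as a band. Black is the distal peaks ranked 1 to 500, red all 547 distal peaks and blue lower-ranked distal peaks; at the summit the black line stands at 37.45%, the red at 35.77% and the blue at 33.76%.

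Short motifs were searched for on either strand in the 50 bp to each side of the summit, and a match is a description of letters. GAGAGA was found at 67 distal peaks (12.2%, 9.62 to 15.3%), against 6.57% (5.55 to 7.71%) of lower-ranked ones and 5.34% of distal windows. Strong peaks at promoters had it at 11.8% (9.45 to 14.4%), those in introns at 9.07% (6.64 to 12%), those in exons or UTRs at 8.28% (5.37 to 12.1%) and all 2000 at 10.8%, so the share at distal peaks was near that of strong peaks as a whole. Of the distal peaks ranked 1 to 500, 18.1% (12.1 to 25.6%) had it, and of those in the second 1000, 9.12% (5.99 to 13.2%). Autosomal distal peaks had 13.6% (10.4 to 17.4%) and X ones 8.67% (4.70 to 14.4%), with overlapping intervals. In the replicate lists alone, autosomal peaks had 9.90% and X ones 8.45% in replicate 1, and 13.2% and 12.8% in replicate 2. It stood at the F43C1.7 peak shown above and also at those near nas-30, pot-3, zip-7, casc-3, hil-7, cnd-1 and ZK899.6. CACACA was found at 8.04% (5.91 to 10.6%), against 5.67% and 4.71%, and at 8% of all 2000 strong peaks. The half-site AGGTCA of many nuclear receptors was found at 12 (2.19%, 1.14 to 3.80%), against 2.36% and 2.68%, and GGGTCA, which shares its last 5 letters, at 11 (2.01%, 1.01 to 3.57%), against 1.18% and 1.54%. Both intervals held the share of distal windows. TGATAA, read by GATA factors, was found at 10.6%, against 9.73% and 9.21%, TTAGGC, the telomere repeat, at 2.38%, against 2.60% and 2.77%, and AAAAAAAA at 14.3%, against 17.9% and 13.6%.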

How the data were processed

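ChIP-seq peaks of eGFP-tagged NHR-11 from 2 late-embryo replicates were analysed as deposited peak lists on ce11. The deposited signal is in the unit of the authors' caller. The deposited −log10 values were read as q-values of peaks within their list and turned back into false discovery rates. Per the file descriptions, the authors called 1 list per replicate and 1 on the pooled replicates, and selected the thresholded peaks from these. Which aligner and caller were used is not given in the sources used here. Peaks on ce10 were not used, nor converted.

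Summits were placed on the Ensembl 115 annotation (19973 protein-coding genes), with sequence from the RefSeq WBcel235 genome, whose chromosome names and lengths hold all ce11 peaks. Copies were found with BLAST 2.17.0 (word size 14, at least 90% identity over 50 bp), and the peak itself was left out. A tandem repeat was a run of 40 bp with at least 36 bases equal to those one unit on. Python 3.11.15, numpy 2.4.6, scipy 1.17.1 and matplotlib 3.10.9 were used, and the class, distance and overlap steps were tested on simulated data. A replicate signal is the highest among its overlapping peaks.

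Counts and medians are given with exact binomial 95% intervals and no test, since regions chosen on signal are not replicates of a condition. Members, lists and motifs were chosen with earlier results of these data known. The recruitment-element strings, the tRNA and lincRNA counts by chromosome and their alternatives were chosen after the data were seen, and so was the whole peak as the window for the strings. The naming rule covered the nearest gene and the noncoding genes within 1000 bp for the 25 strongest and all thresholded peaks. It also covered up to 5 peaks per biotype and gene list. Further, it took in the 5 farthest from genes, the 5 with most copies and the strongest of each chromosome. Not every gene under this rule is named in the text. Other names, such as the genes beside peaks with a string, were chosen after their values were seen.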

Additional observations from a re-analysis of the deposited data

How the results depend on the processing

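Of 83 values recomputed under the alternatives for the 8 main results, 67 stayed within the interval of the reported value (for the count of peaks, within 1.5 times). Taking the 1000 or the 4000 strongest pooled peaks gave 273 and 1092 distal peaks, 10.6% and 2.66% of them thresholded, and 34.4% and 9.71% strong in both replicates. Any peak in each replicate list gave 87.9%. The median distance to a 5′ end was 1870 bp with a limit of 500 bp upstream, 3368 bp with 2000 bp, 2788 bp when the whole peak had to meet the rule, and 1692 bp to the nearest gene edge. Noncoding genes lay within 1000 bp of 15.8% of the peaks outside noncoding genes and their promoters, within 200 bp of 22.7%, and within 1000 bp of 34.0% without piRNA genes. At least 50% of the peak was soft-masked for 17.0%. Leaving out each replicate gave 526 to 556 distal peaks, 4.75 to 6.12% thresholded, 12.2 to 13.1% with a copy, a median GC of 31.7 to 34.7%, a median distance of 2528 to 2571 bp and 40.5 to 42.3% with a noncoding gene within 1000 bp. The share on X was 25.3 to 25.5% (intervals 21.6 to 29.2% and 22.0 to 29.4%, both holding the 22.8% of distal bases), and GAGAGA was at 9.53 to 13.1%. Without peaks that have copies, 0.806% of X peaks had a tRNA gene within 200 bp, and with the 1000 strongest peaks it was 18.2%. The recruitment-element strings stood in 16.9% of X peaks of the 1000 strongest and in 4.48% of the 4000 strongest, and in 2.67% within 50 bp of the summit, the window searched first. The lincRNA share was 0.951% without replicate 1. Some shifts follow from the setting itself: the thresholded share with the number of peaks taken, the distance with the upstream limit, and the noncoding share outside noncoding genes. The cause of the other shifts was not tested. The share strong in both replicates and their ratio cannot be had without a replicate, nor the share with copies among peaks without copies. No paired analysis was possible because there was a single group. Depth was unknown, and the number of replicates was 2.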
